A study of Mus musculus with 614 samples.

Results

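The genes described here are 7 cathepsins (Ctsb, Ctsc, Ctsd, Ctsh, Ctsl, Ctss and Ctsz), legumain (Lgmn) and the protease inhibitor cystatin C (Cst3). They are 9 of the 43280 gene symbols in the table, were taken by name, and were read in each of 598 single marrow cells and 16 single blood cells. The study, whose title places the origin of plasmacytoid dendritic cells in a Ly6d-positive lymphoid progenitor, sorted marrow and blood cells of untreated adult C57BL/6J mice aged 7 to 10 weeks and captured them on microfluidic chips for full-length cDNA. All gates share this strain, age and lack of treatment, and no label names an animal, so each gate counts as 1 sample and no difference between gates has a test.

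The plasmacytoid dendritic cell gate (pDC, B220+SiglecH+) had 27 cells and the common monocyte progenitor gate (cMoP, CD115+Ly6ChiFlt3-c-Kit+) had 66. The 4 marrow pre-dendritic cell gates were all CD11c+MHCII-Flt3+CD172α-B220- and were told apart by staining for SiglecH and Ly6C: SiglecH+Ly6C- had 70 cells, SiglecH-Ly6C- had 70, SiglecH+Ly6C+ had 45 and SiglecH-Ly6C+ had 68. The common dendritic progenitor gate (CDP, CD11c-MHCII-Flt3+c-KitintCD115-IL7R-) had 58 cells. The lymphoid gates were pre-pro-B with 30 cells and the common lymphoid progenitor (CLP) with 48. Granulocyte-monocyte progenitors (GMP) gave 51 cells and lymphoid-primed multipotent progenitors (LMPP) 65. Blood gave 16 pre-DC, sorted like those of the marrow but not divided by SiglecH and Ly6C.

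Values are TPM, the abundance of a transcript scaled for its length and for the total of the cell, which can be set side by side between genes. A level is the mean over cells of log2(TPM + 1), a difference is the first-named gate minus the second on that scale, and an SD is the spread over cells. Genes detected at 1 TPM in a cell had gate medians between 3280 in CLP and 6671 in cMoP. Library numbers in the labels fell into 9 runs. CLP, pre-pro-B and GMP shared 1 run, CDP shared one with 24 of the 27 pDC, and the SiglecH+Ly6C- cells were divided between the run of the SiglecH-Ly6C- cells (19 cells) and that of the SiglecH+Ly6C+ cells (51 cells). Each other gate had a run of its own, and there a gate cannot be told apart from its run. Transcripts of C1qa, C1qb or C1qc, which macrophages make, reached 1 TPM in cells of 4 gates, CLP (42 cells), pre-pro-B (27), GMP (43) and SiglecH-Ly6C+ pre-DC (57), and in no cell of the other 8, and their sum stayed at or below 61.97 TPM. The summed level of 9 macrophage markers had a median of at most 10.5 TPM in any gate, with 100 TPM or more in 6 cells of LMPP, cMoP, CLP and SiglecH+Ly6C+ pre-DC together, and its part in the results below was not tested.

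The gates were checked against marker transcripts. All 7 pDC markers were in 20% or more of pDC cells, with a median sum of 6760 TPM. In the gate labelled pre-pro-B the pDC markers went against the label, with a median sum of 7708 TPM, Siglech at 1872 TPM and Cox6a2 at 3669 TPM. Its 5 B lineage markers had a median sum of 1.34 TPM, and 2 of them were in 20% or more of its cells. Their sum reached 100 TPM in 8 of 30 cells (highest 2175 TPM). Pax5 and Vpreb1 were at 0 of 30 cells (which allows up to 10.0%, taking 3 cells as the limit of a count of 0, here and below). Early lymphoid markers in this gate had a median sum of 17811 TPM, the highest of any gate. It is named pre-pro-B below as its label only. Granule markers were highest in GMP (32756 TPM) and cMoP (18594 TPM), and conventional dendritic cell markers in SiglecH-Ly6C- (3380 TPM) and SiglecH-Ly6C+ pre-DC (3082 TPM). All 6 monocyte markers were in 20% or more of the cells of GMP, cMoP, blood pre-DC and SiglecH-Ly6C+ pre-DC. Their median sums were 10881, 7652, 7454 and 5300 TPM in that order. In blood pre-DC the conventional dendritic cell markers summed to 1139 TPM.

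Cathepsins are proteases of endosomes and lysosomes that are made as inactive precursors and mature at low pH. Most belong to the papain-type cysteine proteases, cathepsin D is an aspartic protease, and legumain is a cysteine protease that cuts after asparagine. In antigen-presenting cells they cut ingested protein into peptides, cathepsin S removes the invariant chain from MHC class II molecules, and several of them cut the endosomal Toll-like receptors. Cystatin C is a small inhibitor, largely secreted, that binds papain-type cathepsins and, at a separate site, legumain, and does not act on cathepsin D.

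Promoter sequence was available for 7 of the 9 genes, with no entry for Ctsb and Ctsh. Motifs were searched on both strands in the RefSeq promoters of build GRCm38.p6 (250 bases before to 50 after the start site). The letters CACGTG are an E-box that factors of the MiT/TFE family, regulators of lysosomal genes, can bind, and TCACGTGA is a longer form that contains it. GAGGAAGT, which reads ACTTCCTC on the other strand, is an Ets box of the kind bound by the myeloid factor PU.1. The 60-base windows that follow are shown because they hold these letters in Ctsd and Ctsc, both highest in GMP and cMoP, and in Ctss, highest in SiglecH-Ly6C+ and blood pre-DC, 5′ to 3′ on the gene's strand, with the motif in capitals.
Ctsd, chr7:142388018-142388077, minus strand: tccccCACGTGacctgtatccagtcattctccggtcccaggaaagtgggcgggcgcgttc
Ctsd, chr7:142387892-142387951, minus strand: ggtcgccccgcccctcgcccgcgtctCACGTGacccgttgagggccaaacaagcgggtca
Ctsc, chr7:88277908-88277967, plus strand: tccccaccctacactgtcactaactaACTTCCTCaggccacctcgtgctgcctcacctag
Ctss, chr3:95526732-95526791, plus strand: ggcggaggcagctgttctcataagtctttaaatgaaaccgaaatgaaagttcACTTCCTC
The first of the Ctsd matches lies near the far end of its promoter, and the other begins 98 bases before the start and is also a TCACGTGA. The Ctsc match begins 151 bases before the start, and that of Ctss begins 2 bases before the start and covers it. CACGTG was also present once each in the Ctsl window and in that of the second RefSeq start of Lgmn. The Ctsz promoter, of the third gene highest in GMP and cMoP, held 0 matches to any of the motifs, as did that of Cst3. Among all 32851 promoters 7.15% held CACGTG, 0.974% held TCACGTGA and 3.20% held GAGGAAGT, and a match is a description of sequence alone. In GENCODE annotation on GRCm38 the genes of these windows lie at chr7:142375911-142388038 (Ctsd), chr7:88278085-88310888 (Ctsc) and chr3:95526786-95556403 (Ctss), all protein-coding. The RefSeq start of Ctsd lies 211 bases inside the GENCODE gene, and those of Ctsc and Ctss coincide with it.

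The 9 genes did not share 1 pattern over the gates. LMPP had the lowest mean of 7 of them. SiglecH-Ly6C- pre-DC had the lowest of Ctsd and Ctsl. The top gate was pDC for Ctsb and Lgmn, pre-pro-B for Ctsl, SiglecH-Ly6C+ pre-DC for Ctsh, blood pre-DC for Ctss, cMoP for Ctsc, GMP for Ctsd and Ctsz, and SiglecH-Ly6C- pre-DC for Cst3. Neighbours in the order of means are called apart here where their quartile ranges over cells do not overlap. That was so for 1 pair of neighbours in Cst3 and 1 in Lgmn, and for no pair in the other 7 genes, and the spread within a gate is wide. Neighbours alone were compared, so gates further apart in an order can still differ. Median Ctsl, for example, was 364 TPM in pre-pro-B and 0 in SiglecH-Ly6C- pre-DC.

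**Figure D1:**
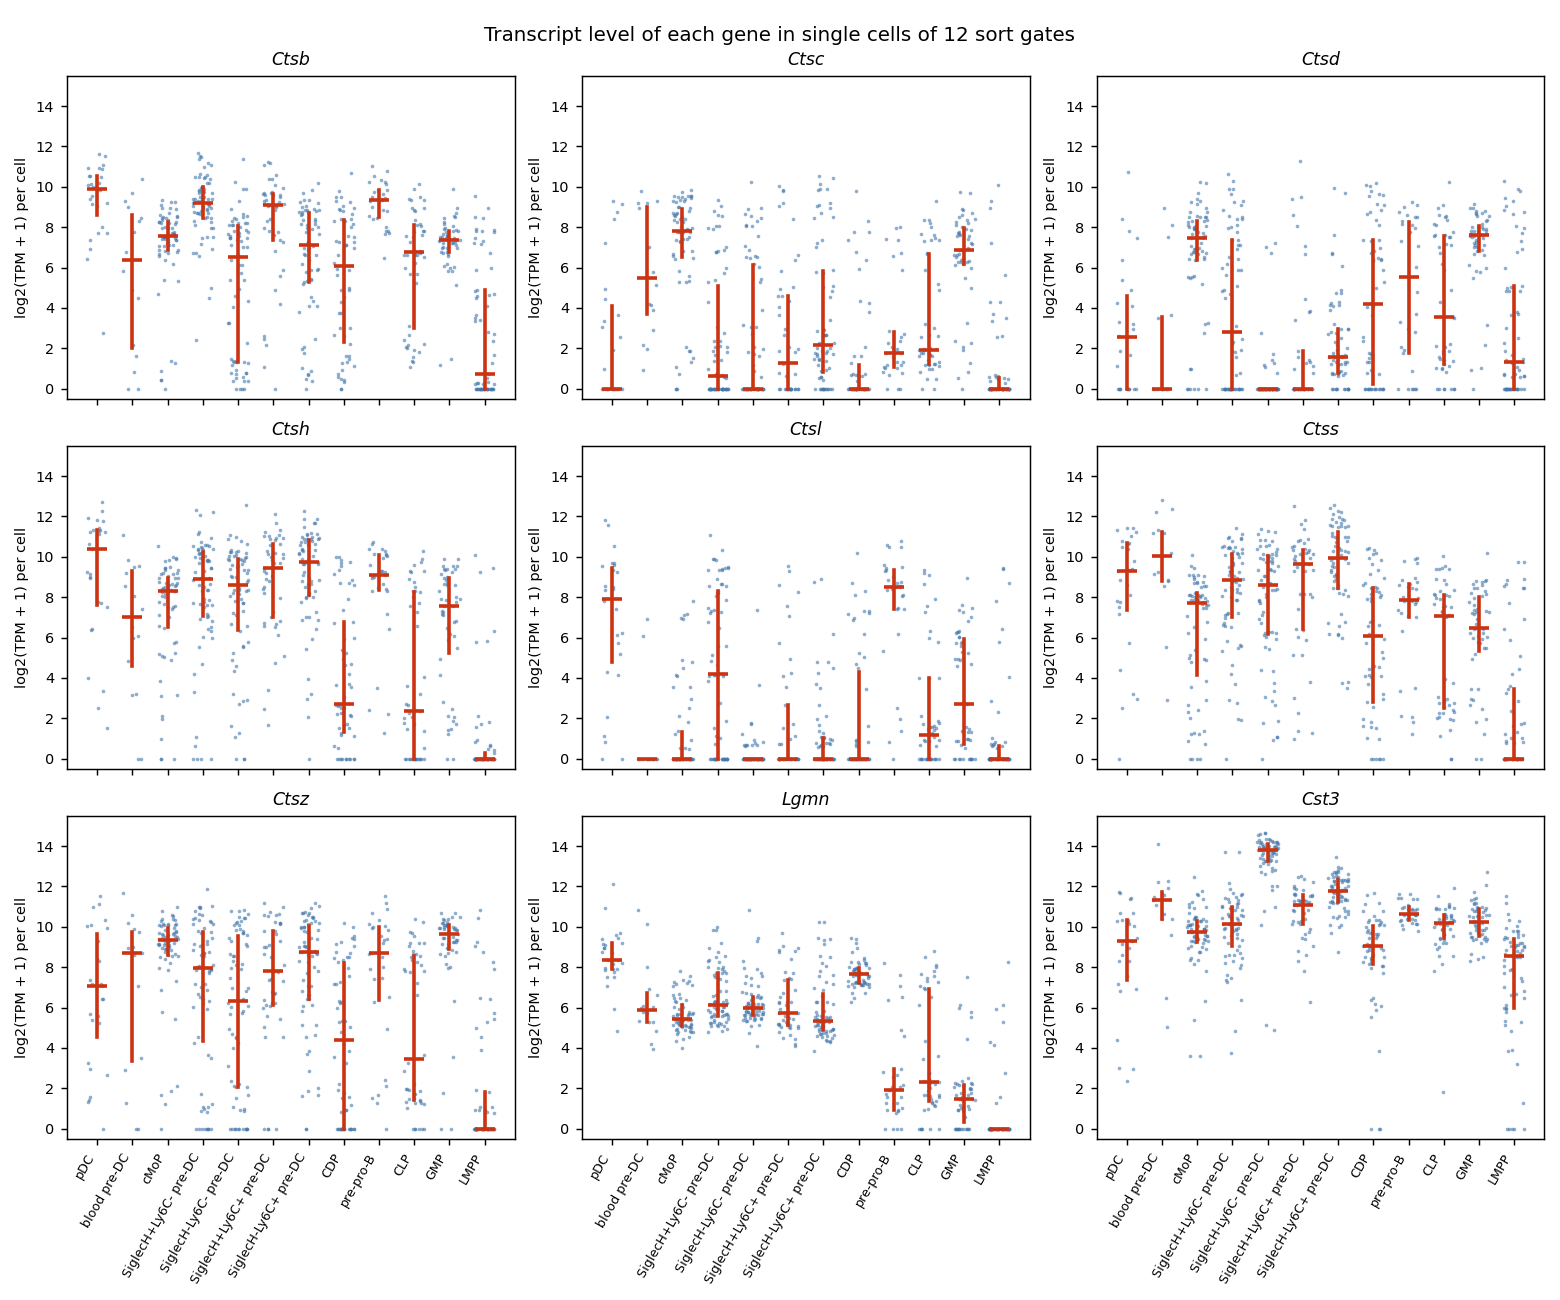
Each point is 1 cell, the vertical axis is log2(TPM + 1), the horizontal axis lists the 12 sort gates, and the red bar and tick mark the quartiles and the median of TPM drawn on the same scale. Ctsl is near 0 in most cells of the blood and SiglecH-Ly6C- pre-DC gates and high in pDC (median 238.5 TPM) and pre-pro-B (median 364 TPM), while Cst3 is high in nearly all gates and reaches a median of 14126 TPM in SiglecH-Ly6C- pre-DC.

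**Figure D2:**
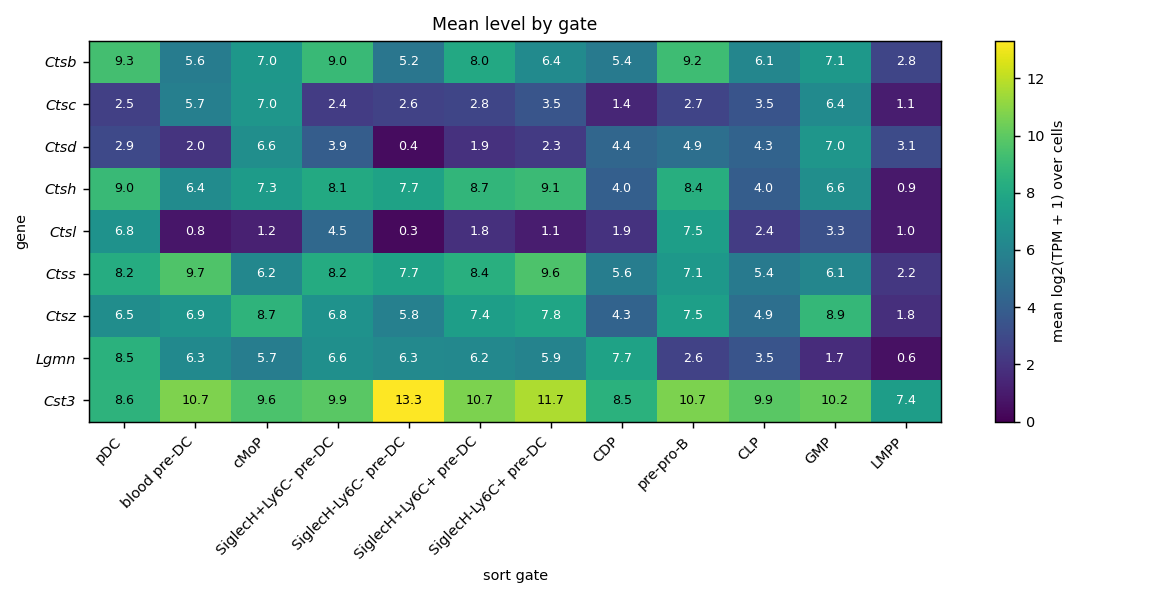
Colour and printed value give the mean of log2(TPM + 1) over the cells of a gate for each gene (rows) and sort gate (columns). Cst3 in SiglecH-Ly6C- pre-DC is the highest entry at 13.31, and Ctsl in the same gate is the lowest at 0.32.

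Cathepsin B, a papain-type protease that can cut within a chain and also remove dipeptides from its end, had a median of 934.8 TPM in pDC (5.76 to 3201), 657.1 TPM in pre-pro-B (86.8 to 2082) and 579 TPM in SiglecH+Ly6C- pre-DC (4.39 to 3255). These 3 gates had 1 TPM or more in each of their cells and 100 TPM or more in 25 of 27, 29 of 30 and 66 of 70 cells. At the other end stood LMPP, with a median of 0.66 TPM (0 to 745) and 14 of 65 cells at 100 TPM or more. The 8 gates between them had medians of 66.8 TPM in CDP to 539 TPM in SiglecH+Ly6C+ pre-DC.

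Cathepsin L, an endopeptidase that in thymic epithelium takes the role that cathepsin S has in dendritic cells, was abundant in few gates. The pre-pro-B median was 364 TPM (0 to 1741), beside 238.5 TPM in pDC (0 to 3567) and 17.3 TPM in SiglecH+Ly6C- pre-DC (0 to 2194). In GMP it was 5.43 TPM and in CLP 1.25 TPM, and in the other 7 gates it was 0. GMP and CLP share the run of pre-pro-B, and the source of these low levels was not tested. Cells at 100 TPM or more made up 76.7% of pre-pro-B (23 of 30, 95% interval 57.7 to 90.1), 59.3% of pDC (16 of 27, 38.8 to 77.6) and, with an interval of 28.5 to 52.4%, 28 of the 70 SiglecH+Ly6C- pre-DC. The share was 1.43% in SiglecH-Ly6C- pre-DC (1 of 70, 0.0362 to 7.70). These Clopper-Pearson intervals and those below cover counting error only. Within SiglecH+Ly6C- pre-DC each of the 28 cells at 100 TPM Ctsl also had 100 TPM Ctsb, while 38 cells had Ctsb alone. With 66 of 70 cells at 100 TPM Ctsb, the product of both shares is 37.7%, near the 28 of 70 cells that had both.

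Cathepsin H, mainly an aminopeptidase, had its highest medians in pDC at 1324 TPM (1.83 to 6732) and SiglecH-Ly6C+ pre-DC at 865.3 TPM (0 to 4984), followed by SiglecH+Ly6C+ pre-DC at 698 TPM (2.16 to 4385). By mean log2 level SiglecH-Ly6C+ pre-DC (9.08 ± 2.47) and pDC (9.04 ± 3.19) were level with each other within the spread over cells. CDP had a median of 5.48 TPM, CLP of 4.20 TPM and LMPP of 0. Single cells of pDC and CDP covered much of the same range, from 1.83 to 6732 TPM in pDC and from 0 to 1022.6 TPM in CDP.

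Cathepsin S, which cuts the invariant chain in dendritic and B cells and keeps its activity at neutral pH, had a median of 1062 TPM in blood pre-DC (6.51 to 7293) and 976.9 TPM in SiglecH-Ly6C+ pre-DC (10.2 to 6031). No cell of these gates was under 1 TPM. SiglecH+Ly6C+ pre-DC had 796 TPM, pDC 621 TPM, and the Ly6C- pre-DC gates 462.4 TPM (SiglecH+) and 389 TPM (SiglecH-). The progenitor gates other than LMPP lay between 66.03 TPM in CDP and 230 TPM in pre-pro-B, and LMPP had a median of 0.

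Cathepsin C, also called dipeptidyl peptidase I, activates the serine proteases of granules by removing an amino-terminal dipeptide. It was highest in cMoP, with a median of 227 TPM (0 to 932.6), and GMP, with 118 TPM (0 to 863.2), followed by blood pre-DC with 44.2 TPM (0.90 to 882.8). In the other 9 gates the median was at most 3.45 TPM. At 100 TPM or more it was in 72.7% of cMoP (48 of 66), 54.9% of GMP (28 of 51) and 43.8% of blood pre-DC (7 of 16). In CLP and pre-pro-B 52.1% and 56.7% of cells lay between 1 and 10 TPM, and in SiglecH-Ly6C+ pre-DC 38.2% did. These 3 gates come from the runs with low-level C1q transcripts, and detection at 1 TPM is therefore given beside the share at 100 TPM for Ctsc, which was 27.1% in CLP, 16.7% in pre-pro-B and 23.5% in SiglecH-Ly6C+ pre-DC. The granule gene Elane also had low medians of 8.12 TPM in CLP and 11.15 TPM in pre-pro-B, beside 8498 TPM in GMP of the same run. The source of such low levels was not tested.

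Cathepsin D, the aspartic protease of the set, had medians of 192 TPM in GMP (0 to 570) and 178 TPM in cMoP (0 to 1191), and 45.6 TPM in pre-pro-B (0 to 605). In SiglecH-Ly6C- pre-DC its median was 0 and its highest cell had 149 TPM. There, 61 of 70 cells were under 1 TPM and 3 of 70 cells reached 100 TPM (4.29%, 0.893 to 12.02), against 40 of 51 in GMP. SiglecH+Ly6C- pre-DC had 22 of 70 cells at 100 TPM or more, with a median of 6.02 TPM.

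Cathepsin Z, a carboxypeptidase, was the most abundant protease of the set in GMP and cMoP, with medians of 796.7 TPM (0 to 1633) and 646.5 TPM (0 to 2021). It exceeded 100 TPM in 46 of 51 GMP and 59 of 66 cMoP. Pre-pro-B, blood pre-DC and SiglecH-Ly6C+ pre-DC had medians of 413, 420 and 426 TPM. SiglecH-Ly6C- pre-DC had 80.1 TPM, CLP 10.0 TPM and LMPP 0.

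Cystatin C was the most abundant of the 9 in every gate but pDC by mean TPM, where Ctsh and Ctsb were above it. In SiglecH-Ly6C- pre-DC its median was 14126 TPM (28.4 to 25858), and the quartiles of 9871 and 17524 TPM stood clear of those of the next gate, SiglecH-Ly6C+ pre-DC, at 2374 and 5127 TPM around a median of 3549 TPM. Blood pre-DC followed with 2602 TPM and SiglecH+Ly6C+ pre-DC with 2200 TPM, and LMPP had 370 TPM. A level of 5000 TPM, set with the values in view, was reached by 62 of 70 cells in SiglecH-Ly6C- pre-DC, 20 of 68 in SiglecH-Ly6C+, 3 of 45 in SiglecH+Ly6C+ and 2 of 70 in SiglecH+Ly6C-. It was reached by 1 cell each in GMP, cMoP and blood pre-DC, and by none in pDC, CDP, pre-pro-B, CLP and LMPP. The gate with the high cystatin C was sorted as negative for MHC class II protein and had a median of 5998 TPM of H2-Ab1, a class II chain, and 4410 TPM of Cd74, the invariant chain. SiglecH+Ly6C- pre-DC had 0.66 TPM of H2-Ab1 and 5.66 TPM of Cd74.

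Legumain, which matures other lysosomal proteases and cuts Toll-like receptor 9, needs to be read with a further observation. In the 8 gates other than LMPP, CLP, GMP and pre-pro-B, 420 cells in all, none was under 1 TPM, and the lowest had 13.5 TPM. No other member was so even: Cst3, far more abundant, was at 0 in some CDP. In the run of CLP, GMP and pre-pro-B 72.9% of cells had 1 TPM or more of Lgmn, and in LMPP 13.8% did. A further 9 symbols were detected in over 95% of the 420 cells, but, unlike Lgmn, in at most 1.55% of cells of CLP, GMP and pre-pro-B, and in at most 10.8% of LMPP. They are Bhlhe41, Calb1, Gm15564, Mir124-2hg, mt-Ts1, Pax6, Prr15, Prtg and RP23-411L6.3. Calb1, a calcium-binding protein known from neurons and kidney, and Pax6, a regulator of eye and brain development, are not known as genes of dendritic progenitors. Calb1 was at 1 TPM or more in each of the 420 cells and in 0 of 129 cells of CLP, GMP and pre-pro-B, which allows a share of up to 2.33%. The cause of this split was not tested, and it coincides with runs of library numbers.

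Lgmn differed among the 8 gates, but pDC and CDP, with the highest medians, share a run apart from 3 pDC. The lowest cell of that run had 75.5 TPM, and those of the other runs of these gates 13.5 to 28.1 TPM. Between these gates and the other 6, gate and run cannot be told apart. Median Lgmn was 330 TPM in pDC (28.1 to 4504) and 199 TPM in CDP (75.5 to 702), whose quartile ranges overlap at 235.5 to 579.8 and 148 to 248 TPM. The other 6 gates had medians between 39.6 and 69.7 TPM. The 24 pDC of the run of CDP had a median of 375.7 TPM, and the other 3 pDC had 28.1, 60.8 and 820.2 TPM. Cells at 500 TPM or more, again set with the values in view, were 9 of 27 in pDC (33.3%, 16.5 to 53.96), 2 of 16 in blood pre-DC, 6 of 68 in SiglecH-Ly6C+ pre-DC and 3 of 58 in CDP, and 0 of 66 in cMoP, which allows a share of up to 4.55%. Across the cells of a gate the Spearman correlation of Lgmn with Calb1 was 0.76 in pDC (27 cells), 0.66 in cMoP (66 cells) and 0.59 in SiglecH-Ly6C- pre-DC (70 cells), and 0.01 in SiglecH+Ly6C+ (45 cells) and 0.08 in SiglecH+Ly6C- pre-DC (70 cells). The cMoP, SiglecH-Ly6C- and SiglecH+Ly6C+ values each come from 1 run. Within single runs the value was 0.88 in 24 pDC, and 0.19 and -0.28 in 51 and 19 SiglecH+Ly6C- pre-DC. In LMPP, CLP, GMP and pre-pro-B Lgmn medians were at most 3.88 TPM, with 13 of 48 CLP at 100 TPM or more.

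**Figure D3:**
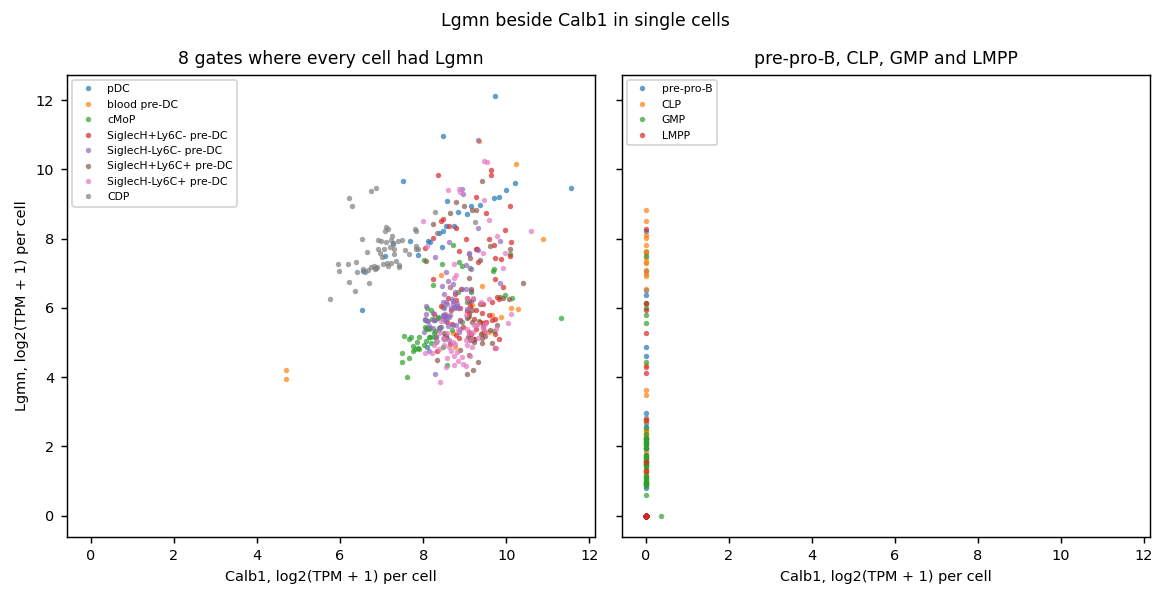
Each point is 1 cell, with log2(TPM + 1) of Calb1 on the horizontal and of Lgmn on the vertical axis, in the 8 gates without a cell under 1 TPM Lgmn (left) and in pre-pro-B, CLP, GMP and LMPP (right). The 420 cells on the left all have both transcripts, with Lgmn at 13.5 TPM or more, and the cells on the right have Calb1 at or near 0.

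Summed over the 7 cathepsins and legumain, the level per cell had a median of 5713 TPM in pDC (749 to 11149), 3809 TPM in SiglecH-Ly6C+ pre-DC (417 to 11953), 3193 TPM in SiglecH+Ly6C+ and 3139 TPM in SiglecH+Ly6C- pre-DC. SiglecH-Ly6C- pre-DC had 1704 TPM, and lower still were CDP at 1169 TPM, CLP at 899.3 TPM and LMPP at 273.9 TPM. By mean TPM the leading protease was Ctsz in GMP (41.7% of the sum), cMoP (32.9%) and CLP (20.4%). Ctss led in blood pre-DC (50.9%), SiglecH-Ly6C+ pre-DC (39.7%), SiglecH-Ly6C- pre-DC (30.9%) and CDP (20.4%). Ctsh led in pDC (30.8%), SiglecH+Ly6C+ (27.9%) and SiglecH+Ly6C- pre-DC (23.7%). Pre-pro-B was led by Ctsb (23.8%) and LMPP by Ctsd (25.5%). The sum includes Lgmn, which crosses the split described above. Lgmn made up 0.53% (GMP) to 5.55% (CLP) of the mean sum in LMPP, CLP, GMP and pre-pro-B. In the other 8 gates it made up 2.89% (cMoP) to 17.2% (CDP). Its part in the order of the gates, by sum or by the ratio that follows, was not tested.

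The ratio of cystatin C to the 7 cysteine proteases that it can bind (the cathepsins other than D, and legumain) placed SiglecH-Ly6C- pre-DC and pDC at opposite ends. Its median log2 value was 2.93 in SiglecH-Ly6C- pre-DC, where Cst3 exceeded the summed proteases in 65 of 70 cells. In pDC it was -3.01, and Cst3 exceeded the sum in 1 of 27 cells. Medians in the other gates lay between -1.26 in cMoP and 0.48 in LMPP. These are transcript levels, and protein and its secretion were not measured.

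**Figure D4:**
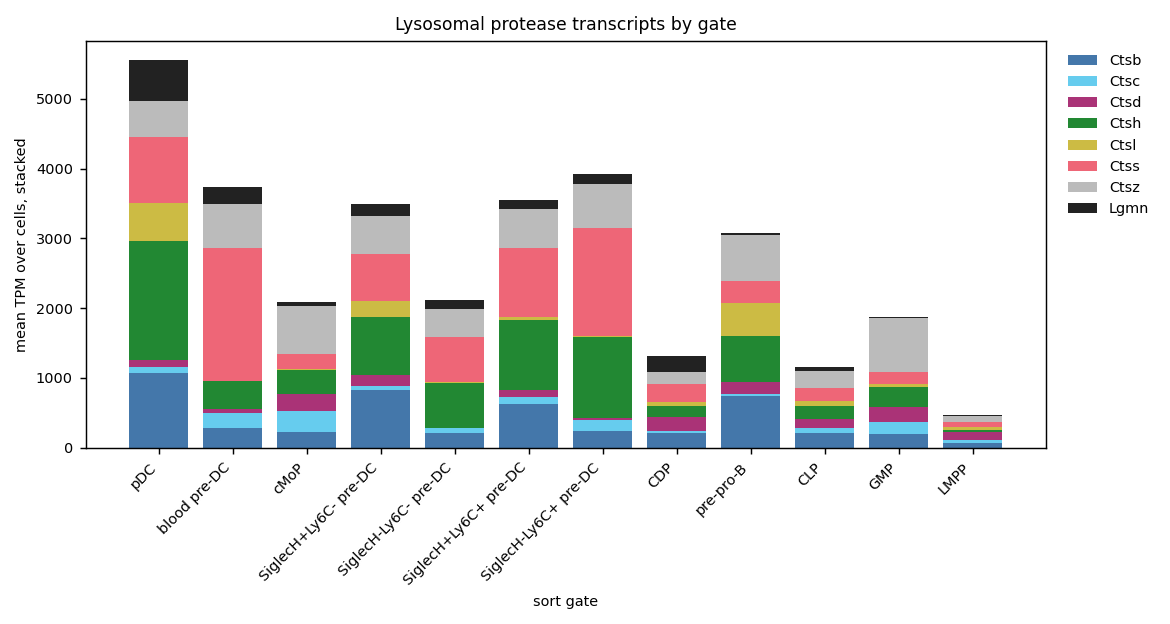
Stacked bars give the mean TPM over cells of the 7 cathepsins and legumain in each sort gate. Ctsz makes up 41.7% of the GMP bar, Ctss 50.9% of the blood pre-DC bar and Ctsh 30.8% of the pDC bar.

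A difference is called here where it is 2 or more in size on the log2 scale, a ratio of 4, among genes that reach 1 TPM in 20% or more of either gate's cells. All 9 members met this filter in each of the 12 comparisons. With 1 sample a gate the call is a threshold of size only. The comparisons share gates, so their counts are not independent of each other. Of the 29 member differences called, 17 were under 2 in size with the log2 of the mean TPM of a gate, which gives more weight to the highest cells, and 12 with a pseudocount of 10, which gives less weight to low values. These calls are named beside each comparison.

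Marrow pDC had higher transcript levels of 5 of the 9 members than CDP and lower levels of none, where 1.56% of all 9537 genes that met the filter were called higher and 6.94% lower. The median member difference was 2.29, against -0.44 over all these genes. Ctsh averaged 9.04 ± 3.19 in pDC and 4.03 ± 3.40 in CDP (SD over 27 and 58 cells), a difference of 5.01, and Ctsl averaged 6.81 ± 3.51 in pDC and 1.95 ± 3.11 in CDP, a difference of 4.86. Ctsb was higher by 3.91, Ctss by 2.59 and Ctsz by 2.29. With the log2 of mean TPM Ctss (1.79) and Ctsz (1.58) were not called, nor was Ctsz (1.44) with a pseudocount of 10. Ctsd went the other way, at -1.46, and Cst3 was level between the gates, at 0.08. In the shared run the called differences were 4.69 for Ctsh, 4.67 for Ctsl, 3.78 for Ctsb, 2.38 for Ctss and 2.07 for Ctsz. With size factors all genes shift by a median of 0.20 here. Of 20 lysosomal hydrolases that met the filter 1 was called higher, Psap, the precursor of saposins, at 3.68, and 0 of 15 subunits of the proton pump (V-ATPase) were called. Of the lysosomal membrane proteins Cd68 (2.44) and Cd164 (2.19) were called higher and none lower. In the class II pathway 4 of 8 genes were called higher, led by Cd74 at 5.16 and H2-Aa at 4.40. Another lysosomal protease, the carboxypeptidase Ctsa, was higher by 2.10. Of 3 other cystatins and serpins that met the filter 2 were called lower, Serpinb1a (-5.25), an inhibitor of granule serine proteases, and Cst7 (-4.26), which encodes cystatin F, an inhibitor of lysosomal cathepsins.

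Within Ly6C- pre-DC, SiglecH+ cells had higher Ctsl, Ctsb and Ctsd and lower Cst3 than SiglecH- cells. Ctsl averaged 4.49 ± 3.92 in SiglecH+Ly6C- and 0.32 ± 1.03 in SiglecH-Ly6C- pre-DC (SD over 70 cells each), a difference of 4.17. Ctsb averaged 9.04 ± 1.62 in SiglecH+Ly6C- and 5.22 ± 3.41 in SiglecH-Ly6C- cells (3.83 higher), and Ctsd 3.91 ± 3.78 and 0.45 ± 1.48 in the same order (3.46 higher). Cst3 averaged 9.91 ± 1.70 in SiglecH+Ly6C- and 13.31 ± 1.67 in SiglecH-Ly6C- cells, a difference of -3.40. Thus 3 members were called higher, against 2.56% of 9125 genes, and 1 lower, against 0.953%, with a median of 0.49 for the members and 0.28 for all genes. Among the 19 SiglecH+ cells in the same run as the SiglecH- cells, the differences were 5.16 for Ctsl, 3.78 for Ctsb, 2.77 for Ctsd and -3.41 for Cst3. With a pseudocount of 10 Ctsd, at 1.96, was not called. The papain-type Ctsh (0.42) and Ctss (0.49), abundant in both gates, were not called. Of the other lysosomal proteases the carboxypeptidases Ctsa (2.84) and Scpep1 (2.82) were higher, and the hydrolase Ppt1 (-3.28) was lower. All 9 class II pathway genes were lower and 6 of them were called, with a median of -4.80.

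Among Ly6C+ pre-DC the same split by SiglecH gave no called member, where 0.415% of 8683 genes were called higher and 0.818% lower. The median member difference was -0.35, against 0.13 for all genes. The nearest were Ctsb, at 8.01 ± 2.76 in SiglecH+Ly6C+ and 6.38 ± 2.79 in SiglecH-Ly6C+ cells (1.63), and Ctss, at 8.38 ± 3.04 in SiglecH+Ly6C+ and 9.59 ± 2.14 in SiglecH-Ly6C+ cells (-1.21). Cst3 differed by -0.999. These gates come from separate runs. Of the lists beside the members, the macrosialin gene Cd68, of the lysosomal membrane, was lower by 3.02 on the log2 scale (a difference of -3.02), and 4 of 9 class II genes were called lower, with Cd74 at -4.78.

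When the Ly6C split was taken within SiglecH+ cells, Ctsl was higher in SiglecH+Ly6C- than in SiglecH+Ly6C+ pre-DC by 2.66, and Ctsd by 1.99, just short of a call. In the shared run these differences were 2.29 and 2.25. There 1 member was called higher and none lower, where 1.09% and 0.442% of genes were called. That call ended with the log2 of mean TPM (1.99) and with a pseudocount of 10 (1.63). Within SiglecH- cells the Ly6C- gate was lower than the Ly6C+ gate in 7 of 9 members, of which Ctsz was called at -2.04, beside Ctss at -1.89 and Ctsd at -1.82. The Ctsz difference was -0.64 with the log2 of mean TPM and -1.42 with a pseudocount of 10, and with the log2 of mean TPM Ctsd (-2.54) and Ctsl (-2.25) passed 2 in size. Cst3 was higher by 1.64. The shares of all genes called there were 0.862% higher and 1.22% lower, and these gates come from separate runs.

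Compared with SiglecH+Ly6C- pre-DC, the gate whose Ctsb and Ctsl came nearest among the pre-DC, pDC had 1 called member, Ctsl, at 6.81 ± 3.51 in pDC and 4.49 ± 3.92 in SiglecH+Ly6C- pre-DC (2.32). It was not called with the log2 of mean TPM (1.28) or with a pseudocount of 10 (1.52). Of all genes 0.537% were called higher and 3.7% lower. Lgmn was higher by 1.89 and Cst3 differed by -1.31, while Ctsb (0.28), Ctsc (0.13) and Ctss (0.03) were near 0. The median of the members was 0.13 and that of all genes -0.41. A shift of all genes by 0.15 follows from size factors here. Class II genes were called higher in 4 of 8 cases, led by Cd74 at 4.23.

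**Figure D5:**
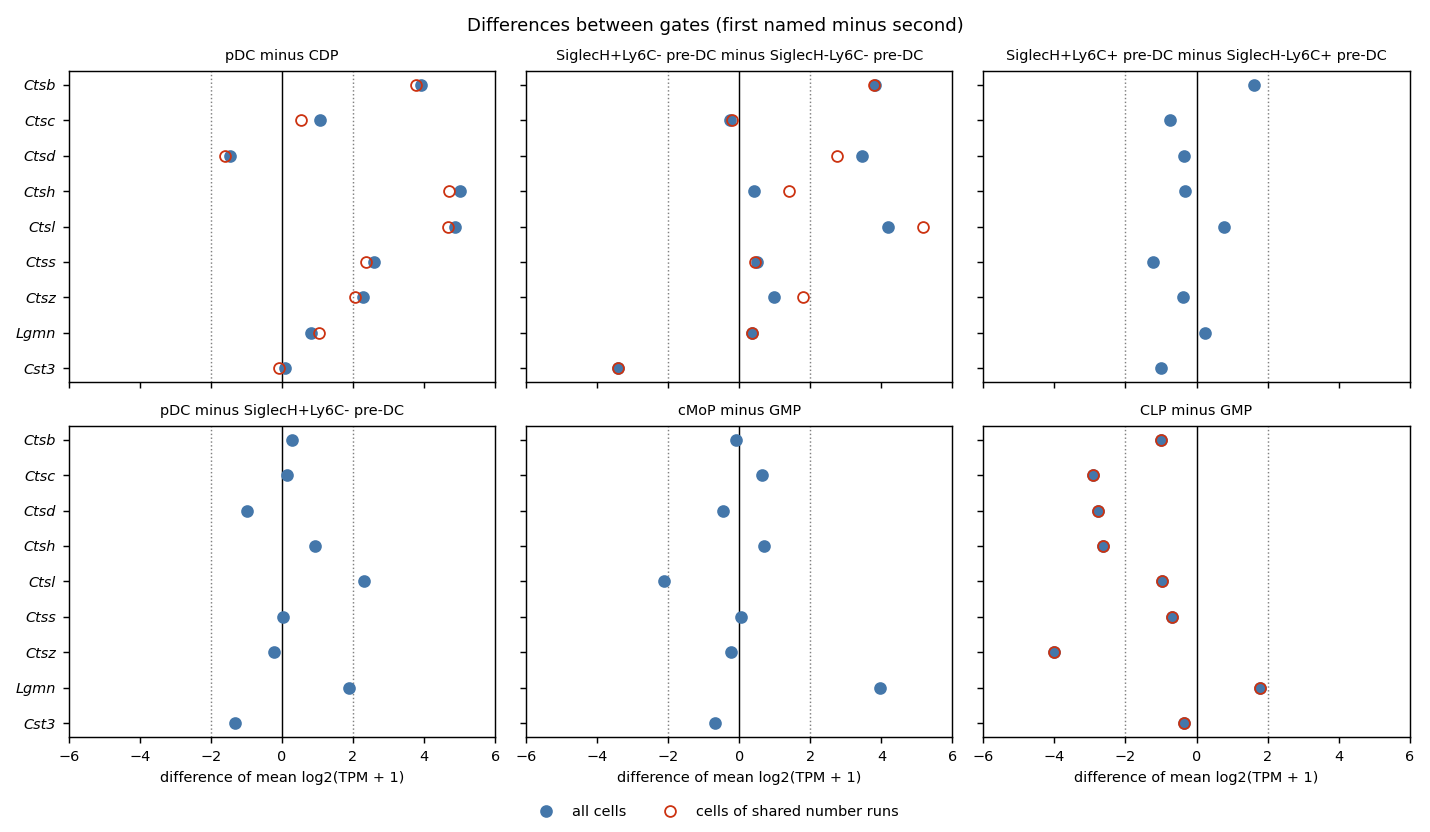
Filled points give the difference of mean log2(TPM + 1), first-named gate minus second, for each gene in 6 comparisons. Open points use only cells of library-number runs that hold both gates, and dotted lines mark -2 and 2. In pDC minus CDP 5 genes lie beyond 2, and in the SiglecH comparison of Ly6C+ pre-DC none does.

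Cells of the gate labelled pre-pro-B, which carries the pDC markers given above, had higher levels of 4 members than CLP and lower levels of none, with 3.66% of genes called higher and 1.87% lower. Ctsl averaged 7.46 ± 3.05 in pre-pro-B and 2.35 ± 3.01 in CLP (SD over 30 and 48 cells; 5.11), Ctsh was higher by 4.40, Ctsb by 3.06 and Ctsz by 2.64, all in 1 run. With the log2 of mean TPM Ctsl (2.92) was still called, and Ctsh (1.84), Ctsb (1.75) and Ctsz (1.49) were not. Ctsz (1.93) was also not called with a pseudocount of 10, nor Ctsh (1.65) without C1q cells. The lysosomal carboxypeptidase Scpep1 was higher by 3.01 and Psap by 2.81. Set against pre-pro-B, pDC, which shares no run with it, differed by 0.14 in Ctsb, 0.68 in Ctsh and -0.65 in Ctsl. The calls in that comparison were Lgmn at 5.89, which crosses the split described above, and Cst3 at -2.11, where Cst3 averaged 8.60 ± 2.70 in pDC and 10.71 ± 0.51 in pre-pro-B. The Cst3 call ended with the log2 of mean TPM (-0.85), with size factors (-1.51) and with a pseudocount of 10 (-1.94). Of all genes 7.33% were called higher and 12.6% lower in pDC, and size factors shift all genes by 0.18.

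In the myeloid progenitors, cMoP and GMP had nearly the same levels of most members. The calls were Lgmn at 3.95, which again crosses the split, and Ctsl, at 1.21 ± 2.21 in cMoP and 3.33 ± 2.87 in GMP (-2.11; SD over 66 and 51 cells), where 6.69% of 11004 genes were called higher and 7.89% lower. The Ctsl call ended with the log2 of mean TPM (-1.67), with a pseudocount of 10 (-1.01) and without C1q cells (-1.40). The other 7 members differed by at most 0.69 in size, with Ctsc at 0.65 and Ctsz at -0.23. The granule serine proteases that cathepsin C activates stood at -1.82 (Ctsg), -1.33 (Elane) and -1.32 (Prtn3) in the same comparison. Lamp1 (-2.69) and Cd63 (-2.30) of the lysosomal membrane and 2 of 17 V-ATPase subunits were called lower. The gates come from separate runs.

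CLP had lower levels of 4 members than GMP: Ctsz, at 4.88 ± 3.80 in CLP and 8.89 ± 2.40 in GMP (-4.01), Ctsc (-2.90), Ctsd (-2.76) and Ctsh (-2.64). With the log2 of mean TPM none of these was called: Ctsz was at -1.71, Ctsc at -1.38, Ctsd at -0.71 and Ctsh at -0.63. With a pseudocount of 10 only Ctsz was called, and Ctsd was at -1.57 without C1q cells. No member was called higher. Both gates share a run, and the background here is large, with 25.8% of 8694 genes called lower and 0.874% higher. The member median of -0.99 lay near that of all genes, -1.22, with a median of 3280 detected genes per cell in CLP and 5792 in GMP. Cst3 differed by -0.36 and Ctss by -0.68. The difference in Ctsh had the opposite sign, 3.02, when cells with C1q transcripts at 1 TPM were left out, which kept 6 CLP and 8 GMP. Other lysosomal genes were lower as well, with 13 of 26 hydrolases, 10 of 17 V-ATPase subunits and 7 of 13 membrane proteins called. Tfec, a MiT/TFE factor, was lower by 5.01 (a difference of -5.01), with a median of 0 in CLP and 77.5 TPM in GMP. Its median was 49.3 TPM in cMoP and its mean log2 level was at most 0.38 in the gates other than GMP and cMoP.

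cMoP and SiglecH-Ly6C+ pre-DC differed in both directions. Ctsd was higher in cMoP by 4.30, at 6.57 ± 2.78 in cMoP and 2.27 ± 2.23 in SiglecH-Ly6C+ pre-DC, and Ctsc by 3.49. Ctss differed by -3.43, at 6.16 ± 3.02 in cMoP and 9.59 ± 2.14 in SiglecH-Ly6C+ pre-DC, and Cst3 by -2.11. With the log2 of mean TPM Ctsc (0.93) and Cst3 (-1.81) were not called. Of all genes 16.5% were called higher and 1.2% lower, so the higher calls, 2 of 9, are near the background. Ifi30, a thiol reductase of the class II pathway, stood at -5.16 and Cd68 at -3.49. All 3 other cystatins and serpins that met the filter were called higher, Cst7 at 4.85, Serpinb1a at 3.97 and Cstb, which encodes the cytosolic cystatin B, at 2.32. The gates come from separate runs.

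Blood pre-DC were compared with the 4 marrow pre-DC gates, averaged with equal weight. Ctsc was the 1 member called, with 5.72 ± 2.98 in blood pre-DC and gate means of 2.38 to 3.52 in the marrow (2.90 higher). It was not called with the log2 of mean TPM (1.23) or with a pseudocount of 10 (1.59). Ctss was higher by 1.19, and Ctsh (-1.97) and Ctsb (-1.57) were lower without a call. Of all genes 1.29% were called higher and 6.05% lower, and the member median was -0.16 beside -0.41. With 16 cells in a run of their own, a share of cells has a wide interval: 12 of 16 blood pre-DC had 10 TPM or more of Ctsc (47.6 to 92.7%). Over these cells Ctsd and Ctsb correlated with genes per cell (Spearman 0.59 and 0.55), whose part in the differences was not tested.

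Within gates the correlations between members were mostly low. Only members detected in 80% or more of a gate's cells were paired. Counting precision is unknown, so a low value does not show that genes vary independently. Over 199 pairs of members and gates the median Spearman correlation was 0.12, between -0.42 and 0.75, and 13 pairs reached 0.5 in size. Of these, 7 were in GMP, among them Ctsh with Cst3 (0.75), Ctss with Cst3 (0.70) and Ctsh with Ctss (0.62), over 51 cells of 1 run. In the same cells Cst3 had a correlation of 0.75 with the summed level of 6 monocyte markers, Ctsh one of 0.67, Ctsz of 0.63 and Ctsc of 0.56. With 5 granule markers the values were -0.28 for Cst3, -0.38 for Ctsh and -0.48 for Ctss. Genes per cell gave -0.03 for Cst3 and -0.06 for Ctsh. These correlations describe single gates and have no test.

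Genes with the most similar pattern were ranked by Pearson correlation of their 12 gate means among 6396 genes. For Ctsh they were Grn (0.97), the progranulin gene of the lysosome, Pld4 (0.94) and Nptn (0.93). Grn averaged 8.47 in pDC and 2.22 in LMPP. For Ctsb they were Nucb2 (0.94), St8sia4 and Bst2 (both 0.90), the last a surface protein used as a pDC marker. For Ctsl they were Havcr1 (0.95), a phosphatidylserine receptor, Scap and Smim5 (both 0.94). Havcr1 averaged 3.45 in pDC, 3.17 in pre-pro-B and 1.71 in SiglecH+Ly6C- pre-DC and no more than 0.54 in the remaining 9 gates. For Ctss they were Pip4k2a (0.93), the kinase Lyn (0.90) and Sp100 (0.88). Ctsc, highest in cMoP and GMP, was most like Mtus1 (0.95), Msrb1 (0.94) and Mefv (0.93), which encodes pyrin. The pattern of Ctsd was most like Fbxo3 (0.96), Tmem216 (0.95) and Commd4 (0.94), and that of Ctsz most like Ergic2 (0.94), Selt and Nptn (both 0.93). Cst3 was nearest to Tmsb4x (0.90), the actin-binding thymosin, Casp6 and the class II loader H2-DMb1 (both 0.87). Lgmn was nearest to Cecr2 (0.95), Dzip1l (0.94) and Sfi1 (0.93), whose gate means show the same split between gates. Among the members themselves the highest values were Ctsh with Ctss (0.85), Ctsh with Ctsz (0.81) and Ctsb with Ctsh (0.79), and the lowest were Ctsd with Cst3 (-0.41) and Ctsd with Ctss (-0.40). The gate means share run, depth and cell number, and the correlations have no test.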

How the data were processed

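Per the labels, single cells were captured on microfluidic chips, and cDNA made with oligo(dT) primers was built into libraries with a transposon kit. The deposited table holds TPM for each cell and symbol. Per the submitters' processing notes the authors used RSEM 1.2.19 and build GRCm38. For the aligner and annotation: not given in the sources used here. TPM keep no read counts, so depth is unknown. Totals per cell were 997617 to 1000000, and 15695 symbols were 0 in all cells.

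Levels were means over cells of log2(TPM + 1), a pseudocount of 1, computed with Python 3.11.15, pandas 2.3.3, numpy 2.4.6 and scipy 1.17.1 and tested on simulated data. Such differences understate changes of low genes. Each gate was 1 sample, so no p-value was computed, and no doublet caller was run. The 9 members, the 10 lists beside them and the comparisons were chosen with earlier results of these data known. Besides the members, the text names the 3 genes most like each member (among genes that reach 1 TPM in 50% of some gate's cells), the 2 highest and 2 lowest of a list, and a few genes chosen after their values were seen, such as those that share the split of Lgmn. Over the 12 comparisons MiT/TFE factors gave 2 calls, endosomal Toll-like receptors 3, lysosomal sorting genes 5 and other cystatins and serpins 11. Promoters were RefSeq's. Alternatives were pseudocounts of 0.1 and 10, log2 of mean TPM, size factors over 395 genes, fewer cells, shared runs, other detection thresholds and a smaller call size.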

Additional observations from a re-analysis of the deposited data

Results flagged for a closer look

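The difference between SiglecH+ and SiglecH- gates had opposite signs in Ly6C- and Ly6C+ pre-DC for 4 members, and this contrast between the splits was not tested. Ctsd differed by 3.46 (SiglecH+ minus SiglecH-) in Ly6C- cells and by -0.35 in Ly6C+ cells. The Ly6C+ difference of Ctsd was positive with the log2 of mean TPM (1.47) and with a pseudocount of 10 (0.18), so the opposite signs depend on these settings. Ctss differed by 0.49 in Ly6C- and by -1.21 in Ly6C+ cells. Ctsz differed by 0.98 and -0.39 in the same order of gates, and Ctsh by 0.42 and -0.34. In Ctsd the Ly6C- difference alone was of a size that was called, and it was 2.77 within the shared run. The Ly6C+ gates have no shared run.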

How the results depend on the processing

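No paired analysis was possible because each gate is 1 sample, the number of a cell only names it, and no result comes from a test. Of the 108 member differences 29 were called, and of their 221 values under the alternatives 1 changed sign, Ctsh in CLP minus GMP, which was 3.02 without cells with C1q transcripts and -2.64 with them. Calls ended for 17 of 29 with the log2 of mean TPM, 12 with a pseudocount of 10, 3 without C1q cells and 1 with size factors, and for 0 with a pseudocount of 0.1, in cells with 2000 or more genes, without the 5% of cells with most genes or, of 18, within shared runs. For pDC minus CDP the median member difference was 2.89 with a pseudocount of 0.1, 1.44 with 10 and 1.58 with the log2 of mean TPM. That of SiglecH+Ly6C- minus SiglecH-Ly6C- pre-DC was 1.40 within shared runs. Without C1q cells it was 0.57 for cMoP minus GMP, 0.71 for cMoP minus SiglecH-Ly6C+ pre-DC and 2.27 for pre-pro-B minus CLP. With the log2 of mean TPM it was -0.29 for CLP minus GMP, 0.62 for pre-pro-B minus CLP and 0.54 for pDC minus pre-pro-B, and the last was -0.80 with a pseudocount of 0.1. It was -0.61 with a pseudocount of 10 for SiglecH-Ly6C- minus SiglecH-Ly6C+ pre-DC. An alternative chosen after seeing the data, without Lgmn, gave -1.82 for CLP minus GMP. With a call size of 1 the members called were 2 in SiglecH+Ly6C+ minus SiglecH-Ly6C+, 3 in pDC minus SiglecH+Ly6C- pre-DC, 5 in blood minus marrow pre-DC, 3 in SiglecH+Ly6C- minus SiglecH+Ly6C+, 6 in SiglecH-Ly6C- minus SiglecH-Ly6C+ pre-DC and 4 in pDC minus pre-pro-B. The share of all genes called at a size of 1 was not computed, so these counts have no background beside them. The causes of the shifts under the alternatives were not tested. The C1q alternative kept few cells in CLP, GMP, pre-pro-B and SiglecH-Ly6C+ pre-DC. With no read counts the counting precision of a level is unknown.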
